A study of Mus musculus with 8 samples.

Results

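The genes described here are 9 genes of antigen presentation to CD4+ T cells: 6 genes of the MHC class II pathway (H2-Aa, H2-Ab1, H2-Eb1, H2-DMa, H2-DMb1 and Cd74), the class II transactivator Ciita, and the costimulation ligands Cd80 and Cd86. They were chosen by name, as rows of the count table whose symbol equals one of these names. Earlier results of these data were known when the 9 genes were chosen. All 9 were found among the 18540 genes of the table, and all 9 were among the 15147 genes that passed the low-count filter and were tested. RNA was sequenced from mouse wound skin of 4 control samples, titled con and numbered 1, 2, 3 and 5, and 4 samples treated for 15 days with Z1C2Z, titled shiyan and numbered 1, 2, 4 and 5. The titles do not name the composite: the second group was taken as Z1C2Z because its sample numbers match those in the study's transcriptome display, while the methods for sequencing name only ZCZ, the composite in general. Samples are named by group and number, as in control-3, and values listed by sample follow the order of these numbers. The controls of the wound experiments received PBS. Z1C2Z is a nanocomposite of ZnO2 and CeO2 in a ZIF-8 framework, the version with more CeO2 than ZnO2. The study's methods describe full-thickness dorsal wounds of 10 mm on C57BL mice of 6 weeks and db/db mice of 10 weeks, the latter a leptin receptor mutant used as a model of type 2 diabetes. Which of these strains and ages gave the sequenced samples is not given in the sources used here, and neither is whether samples came from separate mice, so the p-values measure only the spread between these 8 samples, which may be technical.

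MHC class II molecules are cell surface proteins, each made of an alpha and a beta chain, that display peptides from engulfed material to CD4+ T cells. Dendritic cells, macrophages, B cells and, in the epidermis, Langerhans cells carry them constitutively or after activation. A T cell that recognises its peptide also needs a second signal, which CD80 and CD86 give by binding CD28, whereas their binding to CTLA4 restrains the T cell. The comparison asked whether the message for either arm differed between treated and control wounds.

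Only the costimulation arm held genes that passed the test, and the arms were not tested against each other. The 6 class II chain and chaperone genes had nearly the same level in both groups, with log2 fold changes between -0.0055 and 0.14, and none of them passed the test. Cd80 fell 2.54-fold and Cd86 fell 1.77-fold in the Z1C2Z samples, and for both genes every treated sample lay under every control sample. Both calls were lost when certain single samples were left out, as given below. Ciita was at 14.9 ± 2.12 CPM (counts scaled to equal library size; SD, n = 4) in treated wounds and at 10.3 ± 4.68 in controls, a difference that did not pass the test. In all, 2 of the 9 genes were lower at an edgeR adjusted p under 0.05, 0 were higher and 7 did not pass, with a median log2 fold change of 0.016. Over all tested genes 8.13% passed, 3.85% as lower and 4.28% as higher, and the median log2 fold change was 0.0086.

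**Figure D1:**
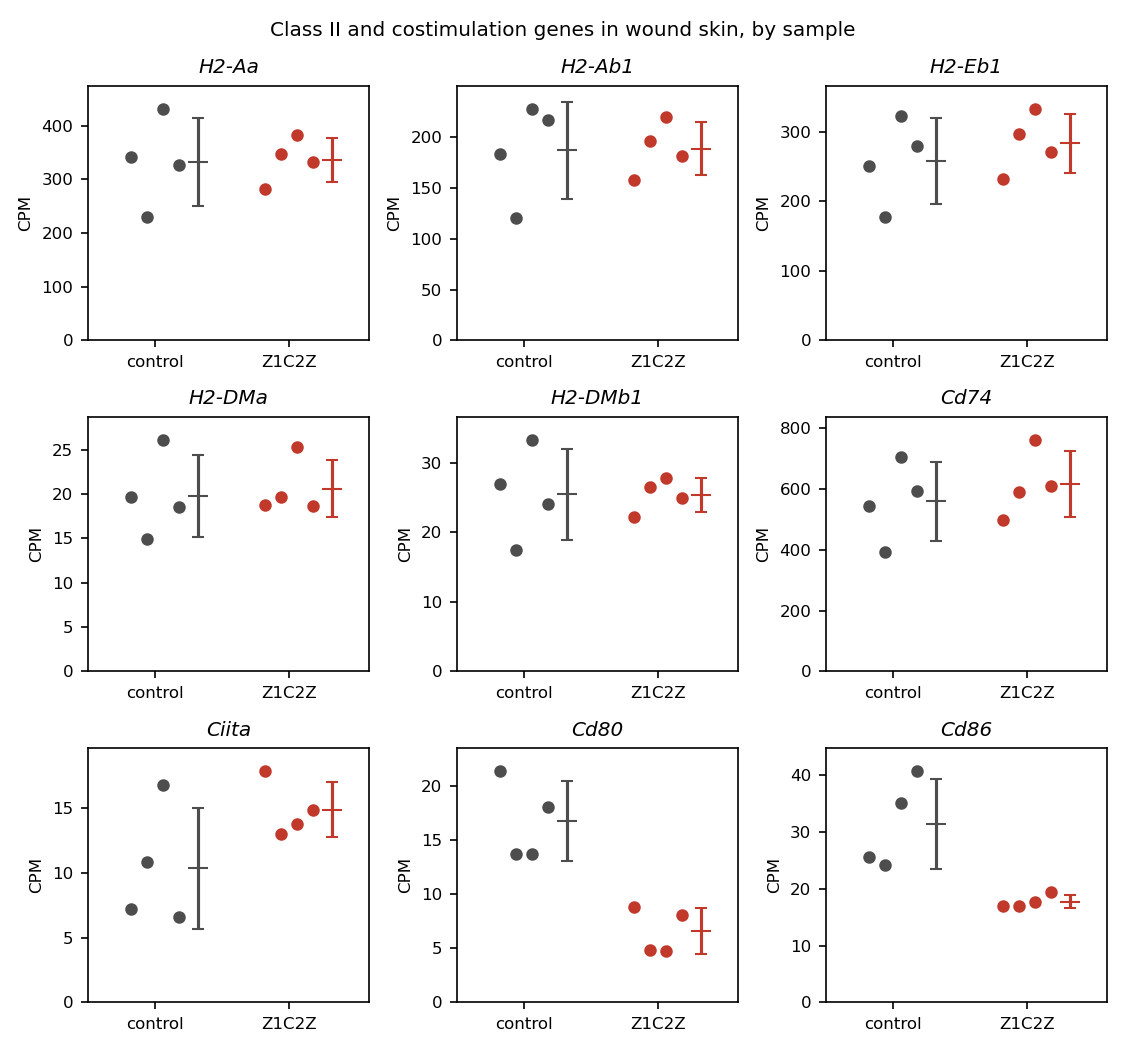
Level of each of the 9 genes in CPM (y axis, from 0) in the 4 control samples (grey points) and the 4 Z1C2Z samples (red points), in the order of their sample numbers; the line and bar at the right of each group are the mean and SD. The groups overlap in 7 panels and are separate in those of Cd80 and Cd86, where control samples start at 13.7 and 24.1 CPM and treated samples reach 8.80 and 19.4.

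Start-site sequences were read from RefSeq (GRCm38.p6, windows of 250 bases before to 50 bases after each start), where 5 of the 9 genes have a window: H2-Aa, H2-Eb1, H2-DMb1, H2-DMa and Cd80. H2-Ab1, Cd74, Ciita and Cd86 have none in that table. The stretches are shown because class II promoters are known for the X and Y boxes. These boxes are bound by the RFX and NF-Y factors on which the CIITA protein acts. The Cd80 stretch is printed beside them, and whether such letters bear on the measured levels was not tested. Capitals mark the letters CTNGNAACT, a core of the X box, and ATTGG, the Y box core, which is the reverse complement of CCAAT. The X letters were chosen after these windows had been read.
H2-Aa, chr17:34287847-34287927, minus strand, bases 104 to 24 before the start: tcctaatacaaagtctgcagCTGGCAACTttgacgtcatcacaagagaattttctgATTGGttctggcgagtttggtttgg
H2-Eb1, chr17:34305753-34305832, plus strand, bases 114 to 35 before the start: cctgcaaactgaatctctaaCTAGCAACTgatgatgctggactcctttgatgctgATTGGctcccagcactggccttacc
H2-DMb1, chr17:34153074-34153154, plus strand, bases 117 to 37 before the start: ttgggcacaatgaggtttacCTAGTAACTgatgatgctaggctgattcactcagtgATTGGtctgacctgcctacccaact
Cd80, chr16:38458833-38458932, plus strand, bases 100 to 1 before the start, with no match: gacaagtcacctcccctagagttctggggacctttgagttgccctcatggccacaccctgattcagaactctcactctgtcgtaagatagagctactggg

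In H2-Aa and H2-DMb1 the X letters were followed by the Y letters after 27 bases, and in H2-Eb1 after 26 bases. Of all 32851 windows of this length, 4.1% held the X letters and 37.4% the Y letters on either strand. In 0.131% X was followed by Y within 40 bases, and 0.0244% (8 windows) held them 26 or 27 bases apart. The spacing of 26 or 27 was itself taken from these 3 genes, and the 8 windows include theirs. The shares are thus a description and no test of the 3 genes. The Cd80 window held neither, and neither of the windows of H2-DMa held the pair. These are matches of letters in a window, not measurements of binding.

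H2-Aa and H2-Ab1 encode the alpha and beta chains of the I-A molecule. H2-Aa (Entrez 14960) was at 343, 230, 431 and 326 CPM in the controls and at 282, 346, 383 and 333 CPM in the treated samples. All treated values lay inside the control range. The log2 fold change, Z1C2Z minus control, was 0.016 (SE 0.18), with an edgeR adjusted p of 0.962 and a 95% interval from -0.39 to 0.42, which spans ratios from 0.764 to 1.34.
H2-Ab1 (Entrez 14961) was at 183, 121, 227 and 216 CPM in the controls and at 157, 196, 220 and 181 CPM in the treated samples. The groups again overlapped throughout, and the log2 fold change was 0.014 (95% interval -0.42 to 0.45, edgeR adjusted p = 0.969). 

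H2-Eb1 (Entrez 14969), the beta chain of the I-E molecule, was at 250, 177, 323 and 280 CPM in controls and at 232, 297, 332 and 271 CPM in treated samples. The treated mean, 283 ± 42.2 CPM (SD, n = 4), exceeded the control mean, 258 ± 61.5 CPM, by less than either SD. The log2 fold change was 0.14 (95% interval -0.28 to 0.55, edgeR adjusted p = 0.659). H2-Ea and H2-Ea-ps, the alpha chain partner in strains that have it, were looked for but not found under these symbols among the counted genes.

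Cd74 (Entrez 16149) encodes the invariant chain, which occupies the peptide groove of new class II molecules and guides them to endosomes. It was at 543, 394, 705 and 594 CPM in controls and at 499, 589, 761 and 611 CPM in treated samples. Z1C2Z-4 was the highest of the 8 samples and control-2 the lowest, and the groups overlapped. Its log2 fold change was 0.14 (SE 0.19, 95% interval -0.28 to 0.56, edgeR adjusted p = 0.664).

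H2-DMa and H2-DMb1 encode the H2-M chaperone, which exchanges the invariant chain fragment for peptide. H2-DMa (Entrez 14998) was at 19.6, 14.96, 26.1 and 18.5 CPM in controls and at 18.8, 19.7, 25.3 and 18.6 CPM in treated samples, with a log2 fold change of 0.059 (95% interval -0.34 to 0.46, edgeR adjusted p = 0.852). H2-DMb1 (Entrez 14999) was at 27.001, 17.5, 33.2 and 24.1 CPM in controls and at 22.1, 26.6, 27.9 and 24.9 CPM in treated samples, with a log2 fold change of -0.0055 (95% interval -0.41 to 0.40, edgeR adjusted p = 0.987). In both genes control-2 and control-3 were the extremes of the controls and enclosed every treated sample.

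The 6 class II genes varied together from sample to sample. Among controls each of the 6 was lowest in control-2 and highest in control-3, by factors of 1.74 to 1.90, and among treated samples each was highest in Z1C2Z-4. Their summed level was 1365, 954, 1746 and 1459 CPM in the controls and 1213, 1474, 1749 and 1439 CPM in the treated samples. The SD of the log2 level over controls was 0.33 to 0.42 for the 6 genes, whereas that of the 5 ratios to Cd74 was 0.028 to 0.13. Over the treated samples these SDs lay closer, at 0.14 to 0.25 for the levels and 0.092 to 0.14 for the ratios, and for H2-DMb1 they were nearly equal. H2-Aa relative to H2-Ab1 lay between 1.51 and 1.91 in controls and between 1.74 and 1.84 in treated samples, and H2-DMa relative to H2-DMb1 between 0.726 and 0.856 and between 0.740 and 0.909.

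**Figure D2:**
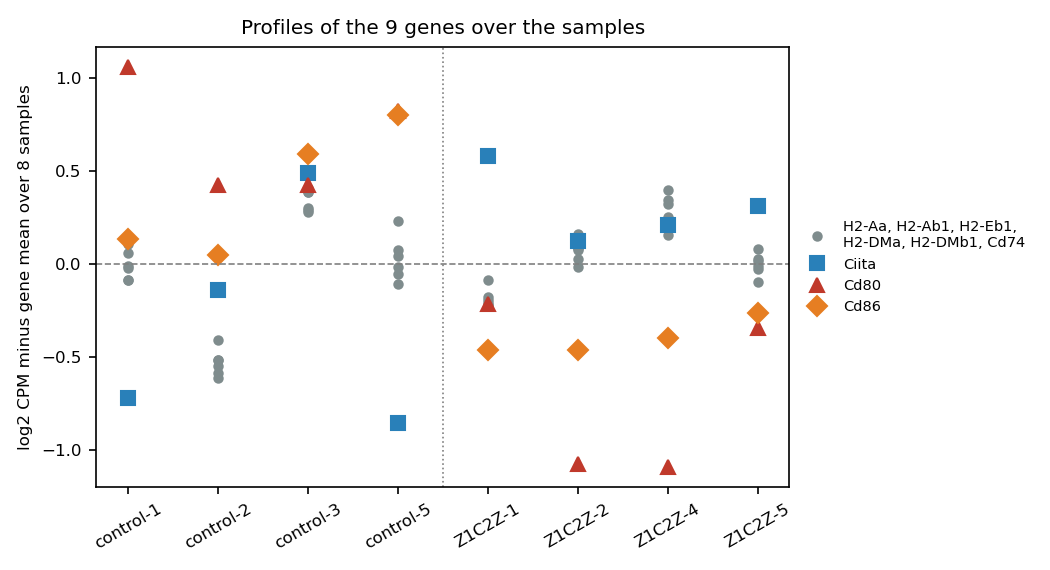
Log2 CPM of each gene minus that gene's mean over the 8 samples (y axis), for each sample (x axis, controls left of the dotted line); grey points are the 6 class II chain and chaperone genes, blue squares Ciita, red triangles Cd80 and orange diamonds Cd86. The grey points move together, low in control-2 and high in control-3 and Z1C2Z-4. They are spread in control-5, from -0.11 (H2-DMa) to 0.23 (H2-Ab1). Cd80 and Cd86 are above 0 in every control and under 0 in every treated sample.

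Measured against the mean profile of the 6 genes over the 8 samples, each of the 6 deviated by a root mean square of 0.042 to 0.091 log2 units. Cd86 deviated by 0.488, Ciita by 0.519 and Cd80 by 0.867. Each of the 6 is part of that mean, which makes its own deviation smaller, whereas the other genes are not. The values of the 6 are thus not comparable with those of the other genes. The 5 other tested genes nearest to that mean profile were Tapbpl, at 0.0934 log2 units, H2-T22 at 0.111, Klc2 at 0.117, Psme2b at 0.117 and Psme2 at 0.121. Tapbpl is a peptide editor of MHC class I, H2-T22 a nonclassical class I gene and Psme2 a subunit of the proteasome activator PA28. Psme2b is a near copy of Psme2, and H2-T22 has near-identical relatives, so the split of reads among such genes is uncertain.

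Ciita (Entrez 12265) encodes the coactivator without which class II genes are not transcribed in antigen presenting cells. It was at 7.21, 10.8, 16.8 and 6.56 CPM in the controls and at 17.8, 12.98, 13.8 and 14.8 CPM in the treated samples. The treated samples were close together and lay above 3 of the 4 controls, and control-3 lay among them. The log2 fold change was 0.52 (SE 0.28, 95% interval -0.11 to 1.15), with an edgeR adjusted p of 0.257 and an exact two-sided permutation p of 0.143 (4 against 4 samples). Without control-3 it was 0.86 with an edgeR adjusted p of 0.0456, so that this single library decided the call. With the mean log2 level of skeletal muscle genes as a covariate the log2 fold change was 0.039 (edgeR adjusted p = 0.939). The summed level of these muscle genes was 3823 to 7205 CPM in controls and 3286 to 3688 CPM in treated samples. As the muscle level moves with the groups, this fit cannot separate muscle content from treatment. The lowest Ciita levels, in control-1 and control-5, stood beside class II levels in the middle of the range, and the SD of its log2 ratio to Cd74 was 0.63 over the controls.

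Cd80 (Entrez 12519) encodes B7-1, a ligand of CD28 and CTLA4 that activated antigen presenting cells put on their surface. Its counts were 602, 496, 499 and 643 in the controls and 312, 186, 190 and 290 in the treated samples. At equal library size these were 21.4, 13.8, 13.7 and 18.1 CPM in the controls against 8.80, 4.82, 4.77 and 8.04 CPM in the treated samples. No treated sample reached the lowest control, and Z1C2Z-2 and Z1C2Z-4 were the lowest of all.
The mean fell from 16.8 ± 3.71 to 6.61 ± 2.12 CPM (SD, n = 4 each). The log2 fold change was -1.34 (SE 0.25, 95% interval -1.90 to -0.78) with an edgeR adjusted p of 0.0300, and the exact two-sided permutation p was 0.0286, the smallest that the 70 arrangements of 4 against 4 samples can give. Of all tested genes, 8.82% had every treated sample under every control and 8.45% every treated sample above every control. The direction was the same with any single sample left out, but the adjusted p then exceeded 0.05 without control-2 (0.0527) or control-5 (0.0783) and without Z1C2Z-1 (0.0661), Z1C2Z-2 (0.0888) or Z1C2Z-4 (0.0876). With the mean log2 level of skeletal muscle genes as a covariate the log2 fold change was -0.98 and the edgeR adjusted p 0.120. The muscle level moves with the groups, so this fit cannot separate muscle content from treatment.

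Cd86 (Entrez 12524) encodes B7-2, the other ligand of CD28 and CTLA4, which resting antigen presenting cells already carry at low level. Its counts were 719, 870, 1274 and 1445 in the controls and 599, 653, 705 and 701 in the treated samples. These corresponded to 25.5, 24.1, 35.1 and 40.7 CPM in the controls and to 16.9, 16.9, 17.7 and 19.4 CPM in the treated samples. The treated samples were close to each other and all under the lowest control, whereas control-3 and control-5 stood well above the other two controls.
The mean fell from 31.4 ± 7.90 to 17.7 ± 1.19 CPM (SD, n = 4 each). The log2 fold change was -0.82 (SE 0.17, 95% interval -1.20 to -0.44) with an edgeR adjusted p of 0.0311 and an exact two-sided permutation p of 0.0286. Left-out samples did not turn the direction, but the adjusted p exceeded 0.05 without control-3 (0.0502) or control-5 (0.0810) and without Z1C2Z-1 (0.0715), Z1C2Z-2 (0.101) or Z1C2Z-4 (0.0962). It was 0.0844 with the skeletal muscle covariate, at a log2 fold change of -0.98, and here too that covariate moves with the groups.

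**Figure D3:**
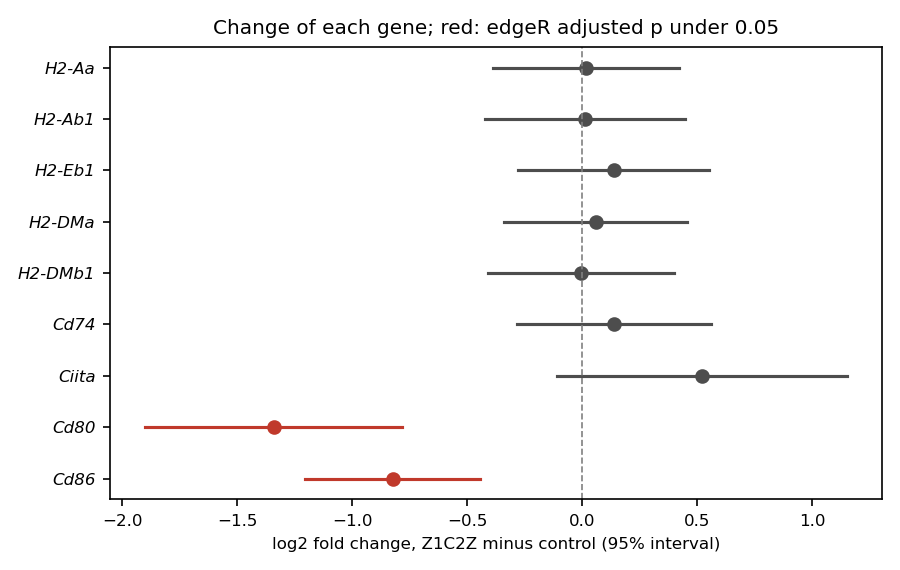
Log2 fold change, Z1C2Z minus control, of the 9 genes (x axis) with its 95% interval from the edgeR fit; genes that passed at an adjusted p under 0.05 are in red. The intervals of Cd80, from -1.90 to -0.78, and of Cd86, from -1.20 to -0.44, lie under 0, and the other 7 cross it.

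The fall of Cd80 was not shown to differ from that of Cd86. The log2 ratio of Cd80 to Cd86 was between -1.35 and -0.26 in controls and between -1.88 and -0.94 in treated samples. The mean difference was -0.58 with an exact two-sided permutation p of 0.143. Set against Cd74, which did not pass the test, the falls of Cd80 and Cd86 appear as ratios, given as a description. Cd74 was 25.4 to 51.3 times the level of Cd80 in controls and 56.8 to 159 times in treated samples, in CPM. Relative to Cd86 it was 14.6 to 21.3 times in controls and 29.6 to 43.0 times in treated samples.

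Levels were also divided by the length of all annotated exons of a gene joined together, which can exceed that of its messages. This length was 3798 bases for H2-Aa against 1944 for H2-Eb1, and 3448 for H2-DMa against 1681 for H2-DMb1. The order below depends on these lengths and is only a rough guide to the levels of different genes. On this scale Cd74 led in control wounds at 333 ± 77.0 CPM per kb (SD, n = 4). H2-Eb1 followed at 132 ± 31.7, H2-Aa at 87.5 ± 21.6 and H2-Ab1 at 72.7 ± 18.7. Lower came H2-DMb1 at 15.1 ± 3.89, Cd86 at 8.57 ± 2.16, H2-DMa at 5.74 ± 1.34, Cd80 at 4.52 ± 1.00 and Ciita at 1.08 ± 0.491 CPM per kb. The means of H2-Aa and H2-Ab1 differed by less than either SD, and those of H2-DMa and Cd80 by less than the SD of H2-DMa. In treated wounds the order was the same except that Cd86, at 4.84 ± 0.326, stood under H2-DMa, at 5.98 ± 0.924. There Cd80, at 1.78 ± 0.571, and Ciita, at 1.56 ± 0.222 CPM per kb, differed by less than the SD of Cd80.

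The genes whose profile over the 8 samples was nearest to that of Cd80 were Serpinb10, with a root mean square difference of 0.142 log2 units and a log2 fold change of -1.25, Ifi205 at 0.157 and -1.39, Nrg1 at 0.170 and -1.36, B4galt5 at 0.176 and -1.54, and Alpk2 at 0.181 and -1.28. Nrg1 encodes the growth factor neuregulin 1 and Ifi205 an interferon inducible protein. Since Cd80 itself differs between the groups, genes chosen for a like profile differ too.

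Among 12 other tested ligands of costimulation and adhesion, 2 fell, 0 rose and 10 did not pass, against 3.85% lower over all tested genes. Their median log2 fold change was -0.44, and the list was not tested against other genes. Icam1 (Entrez 15894), the adhesion ligand of the T cell integrin LFA-1, was at 41.0, 36.4, 45.4 and 54.6 CPM in controls and at 22.8, 23.6, 23.3 and 29.2 CPM in treated samples. These groups did not overlap, and Icam1 fell by 0.84 on the log2 scale (SE 0.14, edgeR adjusted p = 0.0299). Cd276 (Entrez 102657), which encodes B7-H3 and is also made by nonimmune cells, was at 79.5 ± 15.1 CPM in controls and 45.6 ± 12.2 CPM in treated samples (SD, n = 4). It fell by 0.80 (SE 0.20, edgeR adjusted p = 0.0454), with Z1C2Z-5 above the lowest control. Cd48, a ligand of CD244, was at 27.9 ± 3.28 against 30.9 ± 3.78 CPM.
Several others did not pass, with differences of unlike size and direction. Tnfsf9, the ligand of 4-1BB, was at -1.49 on the log2 scale (edgeR adjusted p = 0.0768) and Cd274, which encodes PD-L1, at -0.79 (0.173). Cd40 was at -0.38 (edgeR adjusted p = 0.388), Icosl at 0.09 (0.633) and Vtcn1, an inhibitory B7 family gene, at 1.87 (0.0801).

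On the T cell side, 0 of 10 tested receptors of costimulation passed in either direction, with a median log2 fold change of -0.04. Cd28 was at 1.75 ± 1.15 CPM in controls and 2.43 ± 0.925 in treated samples, and Ctla4 at 5.09 ± 1.37 and 2.82 ± 1.45 CPM (SD, n = 4). Their log2 fold changes were 0.46 (edgeR adjusted p = 0.578) and -0.85 (0.143). Of the receptors with the highest levels, Tnfrsf9, the receptor of Tnfsf9, ranged from 6.36 to 72.3 CPM among controls and from 3.08 to 11.8 CPM among treated samples (log2 fold change -2.25, edgeR adjusted p = 0.0967). Tnfrsf18 had a log2 fold change of -0.03 and Icos one of 0.11.

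In the remaining class II machinery no gene passed the test. Of the 4 other class II genes tested, H2-Eb2, H2-DMb2, H2-Oa and H2-Ob, none passed, and their log2 fold changes lay between 0.00 and 0.60 at group means of 0.436 to 4.36 CPM. Of 11 tested transcription factors and cofactors of class II, 0 passed, with a median of -0.01. Among them Rfx5, a subunit of the RFX complex, was at 16.1 ± 2.66 against 18.6 ± 1.90 CPM, Nfya at 54.4 ± 1.56 against 54.0 ± 6.67 CPM and Creb1 at 102 ± 7.27 against 108 ± 7.51 CPM.
Of 9 tested genes of class II processing and trafficking, 0 passed, with a median of -0.13. The cathepsin Ctss, which trims the invariant chain, was at -0.46 on the log2 scale (edgeR adjusted p = 0.139) and the endosomal protease Lgmn at -0.60 (0.135). Ctsb, Ctsd and Ctsl, the most abundant, were at -0.21, 0.14 and -0.01. Of 17 tested genes of MHC class I presentation, 0 passed, with a median of -0.07, and B2m, Pdia3 and Calr were at -0.21, -0.04 and 0.01.

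A list of cytokines that raise or restrain class II, with their receptors, JAK kinases and the feedback inhibitor Socs1, had 12 tested genes, of which 4 fell, 0 rose and 8 did not pass. Over all tested genes 3.85% fell, the list was not tested against other genes, and all 12 log2 fold changes were negative, with a median of -0.59. The 4 that fell are receptor chains or a kinase, and Il10 and Tgfb1, better known for restraining class II, were at -1.24 (edgeR adjusted p = 0.0895) and -0.68 (0.0557). Il4ra, the receptor chain for interleukin 4 and interleukin 13, fell from 226 ± 62.8 to 87.9 ± 39.0 CPM (log2 fold change -1.36, edgeR adjusted p = 0.0414). The kinase gene Jak2 fell from 182 ± 31.8 to 95.4 ± 23.02 CPM (-0.93, edgeR adjusted p = 0.0303). Csf2rb, the shared beta chain of the GM-CSF receptor, fell from 77.0 ± 13.4 to 35.7 ± 16.2 CPM (-1.11, edgeR adjusted p = 0.0497), and Ifngr1, the ligand binding chain of the interferon gamma receptor, from 169 ± 16.2 to 130 ± 10.9 CPM (-0.38, edgeR adjusted p = 0.0499). No treated sample reached the lowest control in 6 of the 12 genes, these 4 among them, against 8.82% of all tested genes. The list was chosen with earlier results of these data known, so these shares are a description. Jak1, the most abundant of the 12, was at 389 ± 36.8 against 274 ± 67.6 CPM (edgeR adjusted p = 0.0946). Ifng and Il4, with at most 22 and 10 counts per library, were left out by the filter on low counts. So was Csf2, which encodes GM-CSF, with 507 and 276 counts in control-1 and control-5 and 0 to 8 in the other 6 samples.

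**Figure D4:**
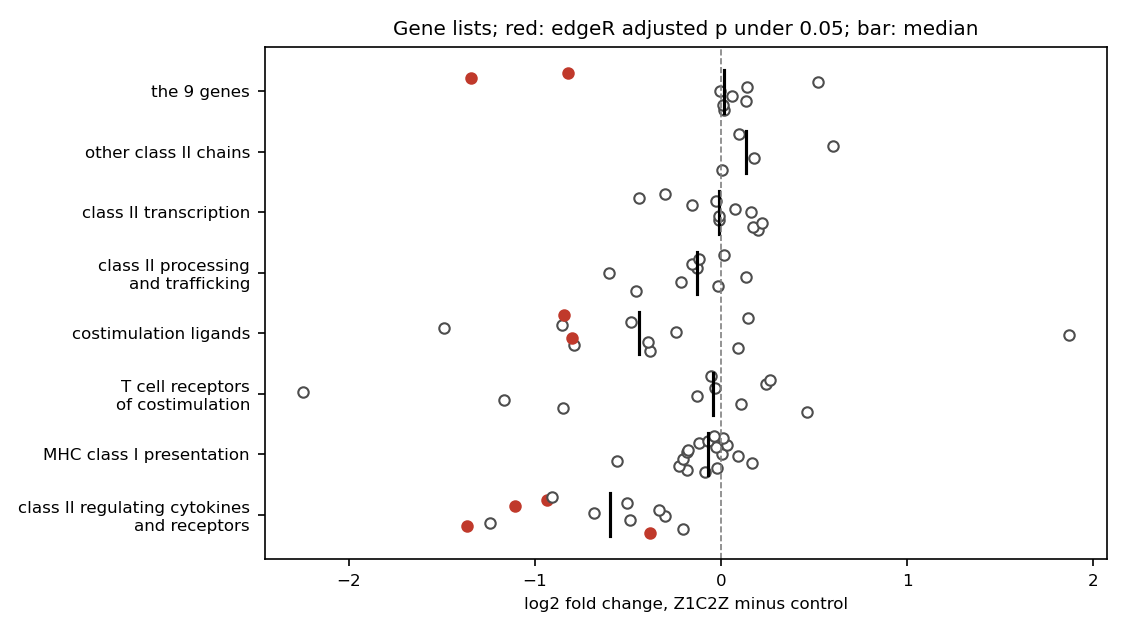
Log2 fold change, Z1C2Z minus control, of every tested gene of each list (x axis); filled red points passed at an edgeR adjusted p under 0.05 and black bars are list medians. Points of the class II and class I lists cluster around 0, while the costimulation ligands and the class II regulating cytokines and receptors have medians of -0.44 and -0.59.

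In whole tissue, fewer cells of a type and less RNA per cell cannot be told apart, so the levels of the cells that could carry these genes are given beside the results. The leukocyte gene Ptprc was at 154 ± 33.3 CPM in controls and 115 ± 29.0 CPM in treated samples (log2 fold change -0.43, edgeR adjusted p = 0.210). Cd80 relative to Ptprc had a log2 ratio of -3.87 to -2.60 in controls and of -4.39 to -3.86 in treated samples, a mean difference of -0.93. The corresponding mean difference was -0.35 for Cd86 and 0.59 for Cd74, and for all 3 genes the groups overlapped.
Of 12 macrophage markers 0 passed, and their summed level was between 2766 and 3176 CPM in controls and between 1642 and 2799 CPM in treated samples. Of the 12 log2 fold changes 11 were negative, with a median of -0.37. Mrc1 was at -0.65 (edgeR adjusted p = 0.173), Lyz2 at -0.24 (0.391) and Cx3cr1, the positive one, at 1.22 (0.0865). Of 4 tested neutrophil markers 0 passed, and all 4 log2 fold changes were negative, with a median of -1.23. Sums over the 6 listed neutrophil markers were 567 to 1492 CPM in controls and 166 to 648 CPM in treated samples. The part of these cells in the fall of Cd80 and Cd86 was not tested.

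Of 14 dendritic cell markers 0 passed, and their sum was between 231 and 330 CPM in controls and between 218 and 243 CPM in treated samples. Itgax, which encodes CD11c, was at 13.4 ± 2.42 against 13.7 ± 1.55 CPM. Of the 14 log2 fold changes 9 were negative, with a median of -0.12, among them those of Ccr7 at -0.71 (edgeR adjusted p = 0.0810), Zbtb46 at -0.55 (0.173) and Fscn1 at -0.52 (0.142). Xcr1 and Clec9a, which mark cross-presenting dendritic cells, were at 1.29 (edgeR adjusted p = 0.0566) and 0.90 (0.108), with every treated sample above every control, as in 8.45% of all tested genes. The Langerhans cell gene Cd207 was at 13.8 ± 5.55 against 14.8 ± 4.25 CPM, or 0.11 on the log2 scale (edgeR adjusted p = 0.846). Epcam, which Langerhans cells share with epithelial cells, was at 105 ± 20.5 against 163 ± 48.8 CPM (edgeR adjusted p = 0.0955) and made up most of the sum of both genes. Of 6 T cell markers tested 0 passed, with sums of 27.1 to 47.2 and 27.4 to 45.5 CPM. Their log2 fold changes were positive in 5 and negative in 1, with a median of 0.22. Neither of the 2 B cell markers that could be tested, Cd22 and Cd79b, passed. Of the defining B cell genes, Ms4a1 and Pax5 had 0 to 7 counts in a sample.

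**Figure D5:**
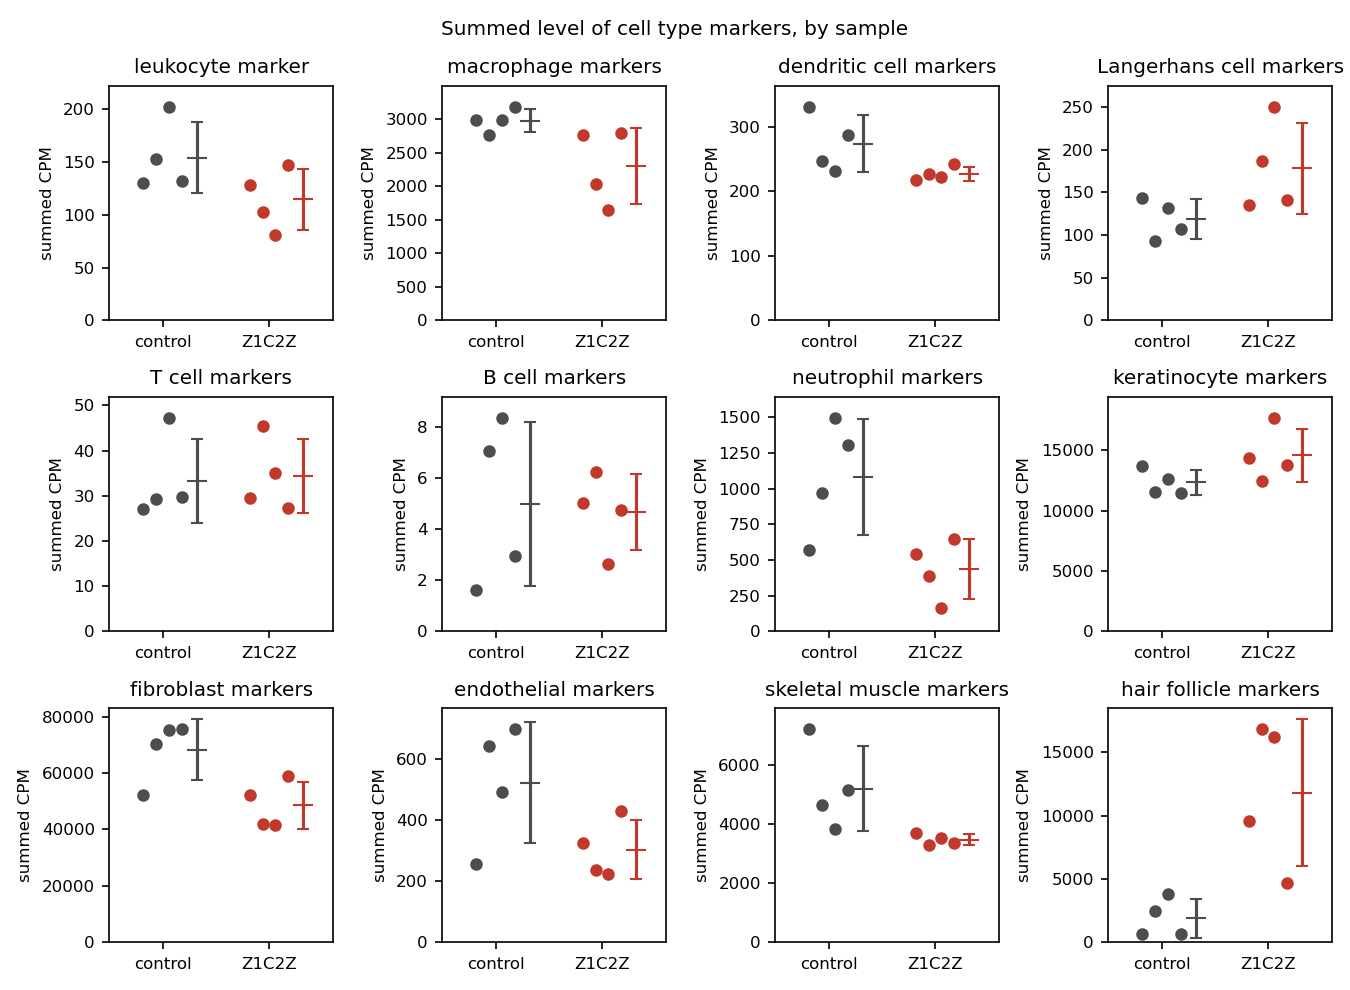
Summed CPM of marker lists (y axis, from 0) in the 4 control samples (grey) and the 4 Z1C2Z samples (red), with mean and SD at the right of each group. The dendritic and T cell sums overlap between groups, macrophage sums are 1642 to 2799 CPM in treated samples against 2766 to 3176 in controls, and hair follicle sums are above those of every control in every treated sample.

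Other tissue in the samples also moved with the groups. Libraries held 28856790 to 38974888 counts. The first principal component took 62.2% of the variance and placed Z1C2Z-5 nearest to the controls. Markers of skin were present in every sample, and 13 of 14 tested hair follicle markers rose, against 4.28% of all tested genes. Hair follicle sums were 643 to 3813 CPM in controls and 4657 to 16806 CPM in treated samples. Of 12 skeletal muscle markers 4 passed as lower, against 3.85% of all tested genes, with sums of 3823 to 7205 and 3286 to 3688 CPM. All 12 log2 fold changes were negative, with a median of -0.57. Of 5 fibroblast markers only Dcn passed, as lower, while all 5 log2 fold changes were negative, with a median of -0.53. Keratinocyte sums were 11426 to 13703 and 12495 to 17647 CPM, and 4 of 5 log2 fold changes were positive, with a median of 0.20. Endothelial sums were 257 to 698 and 223 to 431 CPM, and all 4 log2 fold changes were negative, with a median of -0.75. In both lists 0 genes passed. The part of these tissues in the levels of the 9 genes was not tested. The skeletal muscle covariate given above moves with the groups and cannot separate muscle content from treatment.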

How the data were processed

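The deposited values are read counts per gene that the authors had not normalized, for 8 libraries, with KEGG and GO annotation and 0 per-sample columns left unused here. Per the labels, RNA was extracted with Trizol (the methods name another kit), ribosomal RNA was depleted, and the second cDNA strand was made with dUTP after random priming. Aligner, counter, genome build and strand setting are not given in the sources used here. Class II genes differ between mouse strains, and how reads of a strain unlike the reference were counted is unknown, as is the split between near-identical copies.

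The analysis used R 4.3.3, edgeR 4.0.16 and limma 3.58.1, with filterByExpr, TMM, the quasi-likelihood test over all 15147 tested genes without covariates, and Benjamini-Hochberg adjustment with a threshold of 0.05. CPM were scaled by TMM totals, and log2 CPM used a prior count of 2. Exact two-sided permutation tests covered single genes and the Cd80 to Cd86 ratio. Exon lengths were those of all GENCODE exons of a mouse gene joined together, matched on gene symbol. Totals of 28856790 to 38974888 counts leave little counting error for the 9 genes, and the spread between 4 samples a group limits precision. No 2 libraries agreed within sampling noise (smallest chi-square per degree of freedom 21.0 over 28 pairs).

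The 9 genes and the lists were chosen with earlier results of these data known. The text names all 9, the called and the 3 most abundant genes of each pathway list, marker sums, and the 5 genes nearest in profile. Of the genes this rule selects, 1 is not reported here. Other genes of the lists were named after their values were seen. Sample numbers 1, 2 and 5 occur in both groups, but the deviations of same-numbered samples correlated at -0.10, -0.06 and 0.32, so they were not treated as pairs. Alternatives were DESeq2 1.42.0, RLE size factors, other low-count filters, library totals without keratin and muscle genes, a skeletal muscle covariate, the sample number as block, a prior count of 0.5 and each sample left out. Scripts were tested on simulated data.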

Additional observations from a re-analysis of the deposited data

Results flagged for a closer look

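Among the 18 sets of 4 values formed by the 9 genes and 2 groups, a single value stood far from the others: H2-DMa at 25.3 CPM in Z1C2Z-4, where the other treated samples lay between 18.6 and 19.7 CPM. The gap to the nearest sample was 0.846 of the range of the 4 values, and chance gives such a gap in about 1 in 20 sets. Z1C2Z-4 was also the highest treated sample for the other 5 class II chain and chaperone genes.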

How the results depend on the processing

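Cd80 and Cd86 were lower under all 15 alternatives. Log2 fold changes lay between -1.50 and -0.98 for Cd80 (adjusted p under 0.05 in 9) and between -0.98 and -0.67 for Cd86 (8 of 15). Their ratio kept its direction and missed the threshold in all 10. DESeq2 called 1243 genes higher and 1513 lower, 2 of the 9 among them. With the skeletal muscle covariate 6 genes were higher and 17 lower, 0 of the 9 among them, and H2-Aa, H2-Ab1 and H2-DMa turned to -0.058, -0.038 and -0.041. The muscle level moves with the groups, so this fit cannot separate muscle content from treatment. The cause was not tested.

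The sample number as a replicate block left 301 genes higher and 253 lower. Of the 9, 1 was lower, Cd80, whereas Cd86 was at -0.73 (edgeR adjusted p = 0.0825), and H2-DMb1 turned to 0.12. Ciita was at 0.91 (0.116). Same-numbered samples were not shown to be paired.

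With single samples left out, 0 to 886 genes were higher and 0 to 868 lower, 0 to 2 of the 9 lower and 0 to 1 higher (Ciita, without control-3). With control-5 or any of Z1C2Z-1, Z1C2Z-2 and Z1C2Z-4 left out edgeR called 0 genes, while 3223, 4208, 3137 and 3100 had an unadjusted p under 0.05, and without control-2 it called 25 higher and 98 lower. Log2 fold changes then ran from -0.13 to 0.17 for H2-Aa, -0.15 to 0.12 for H2-Ab1, -0.0069 to 0.27 for H2-Eb1, -0.058 to 0.23 for H2-DMa and -0.15 to 0.15 for H2-DMb1, none with an adjusted p under 0.05. Their signs rest on single libraries. The 95% intervals of the 6 class II genes reached from -0.42 to 0.56, the precision that 4 samples a group gave.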

Other observations

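H2-Eb1 relative to H2-Ab1, chosen after the values were seen, was 1.37, 1.47, 1.42 and 1.29 in the controls and 1.48, 1.52, 1.51 and 1.496 in the treated samples, in the order of their numbers. The treated samples were closer together than the controls and all above them, by a mean of 0.11, although neither gene differed between groups by the test.

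In the KEGG pathway for antigen processing and presentation, as annotated in the deposited table and also looked at after the data, 67 of 78 genes were tested. Of these 1 was higher (Hspa2, a heat shock protein gene best known from the testis) and 0 were lower, against 8.13% called in either direction over all tested genes. The median log2 fold change was -0.01. The pathway holds 7 of the 9 genes but neither Cd80 nor Cd86.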
